A study of Mus musculus with 55 samples.

Results

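Cyclin-dependent kinase inhibitors were examined in mouse pancreatic islets with and without Eed, a core subunit of the Polycomb repressive complex PRC2 that methylates histone H3 on lysine 27. The 7 genes of the 2 inhibitor families were taken by name, Cdkn2a, Cdkn2b, Cdkn2c and Cdkn2d of the INK4 family and Cdkn1a, Cdkn1b and Cdkn1c of the CIP/KIP family, and all 7 were found among the 47937 genes of the bulk count table. Whole-islet RNA of male C57B6/J mice had been sequenced in 16 libraries. There were 3 wild-type (WT), 3 heterozygous (HET) and 3 Eed -/- (KO) libraries at 8 weeks of age, and 3 WT, 2 HET and 2 KO libraries at 25 weeks. The KO mice, named βEedKO in the study, carried floxed Eed on both alleles and a RIP-cre transgene, in which the rat insulin promoter drives Cre, so that the deletion was meant for β cells and the other islet cells kept the gene. At 25 weeks the KO mice were diabetic and at 8 weeks they were not, so genotype and diabetes cannot be told apart at 25 weeks. A replicate was the islets of 1 or 2 animals, and each 25-week KO library was a pool of at least 4. The sources used here do not say whether the WT and HET mice carried the transgene. The second data set was a list of chromatin states over the 19 autosomes of WT islets, with 1 of 24 states for each bin of 200 bp, made from replicates averaged together and so without a spread between animals.

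Progression from G1 into S phase depends on cyclin D with Cdk4 or Cdk6 and on cyclin E with Cdk2, which phosphorylate the retinoblastoma protein and release E2F transcription factors. INK4 proteins bind Cdk4 and Cdk6 and keep cyclin D from them, while CIP/KIP proteins bind cyclin and kinase together. Cdkn2a encodes 2 unrelated proteins from separate first exons, the INK4 protein p16Ink4a and p19Arf, which stabilizes p53 by binding Mdm2. Cdkn2a is a textbook target of Polycomb silencing, and its rise with age in islets is known for limiting the replication of adult β cells. The count table held 1 value per gene, so reads of p16Ink4a and p19Arf could not be told apart in any value below.

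Cdkn2a and Cdkn2b lie one behind the other on the minus strand of chromosome 4, and their start sites lay in different chromatin states in WT islets. The start of Cdkn2b (p15Ink4b) at position 89311039 (GRCm38) was in state A, an active start site. The p19Arf start at 89294653, 16386 bp further along in the direction of transcription, was in state B, the active state next to a start site. The p16Ink4a start at 89282192, another 12461 bp along, was in state M, the bivalent state with high H3K27me3 beside H3K4me3. The sequences before these 3 starts are shown because the states divide them. Each is the stretch up to 250 bases before the RefSeq start (GRCm38.p6), without bases at or after a nearby Gencode transcript start. It is written 5′ to 3′ on the minus strand with CG dinucleotides, the sites of DNA methylation, in capitals. The Cdkn2b and p19Arf stretches each end in a capital C whose G was cut off, and hold 11 and 35 whole CG. The p16Ink4a stretch lies within the span of the longer p19Arf transcript. The stretches are 243 bases for Cdkn2b (chr4:89311040-89311282), 216 bases for p19Arf (chr4:89294654-89294869) and 250 bases for p16Ink4a (chr4:89282193-89282442).
Cdkn2b: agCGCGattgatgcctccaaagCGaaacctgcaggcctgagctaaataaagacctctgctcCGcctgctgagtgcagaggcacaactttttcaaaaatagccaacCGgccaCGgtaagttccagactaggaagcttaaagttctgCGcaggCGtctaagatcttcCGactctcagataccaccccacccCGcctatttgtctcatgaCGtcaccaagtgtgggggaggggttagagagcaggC
p19Arf: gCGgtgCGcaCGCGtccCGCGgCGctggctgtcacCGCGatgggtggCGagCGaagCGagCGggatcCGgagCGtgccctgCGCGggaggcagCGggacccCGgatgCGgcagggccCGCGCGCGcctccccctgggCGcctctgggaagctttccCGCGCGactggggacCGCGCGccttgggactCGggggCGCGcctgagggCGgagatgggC
p16Ink4a: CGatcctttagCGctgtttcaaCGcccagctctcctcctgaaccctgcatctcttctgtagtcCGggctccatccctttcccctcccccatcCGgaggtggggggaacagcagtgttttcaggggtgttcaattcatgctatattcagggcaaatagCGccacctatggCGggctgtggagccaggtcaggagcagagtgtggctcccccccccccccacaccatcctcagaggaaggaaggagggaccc

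The p19Arf window was the densest in CG dinucleotides, with 40 in the whole 250 bases and a G+C content of 78.4%. The motif searched was CG, which reads the same on both strands, and 1.31% of the 32851 RefSeq promoter windows of that length held as many. The Cdkn2b window held 12, as many as 33.5% of the windows held. The p16Ink4a window held 7, close to the median of 6 over all windows. Of the other members with an entry, Cdkn1b held 28 and Cdkn2d 16, and Cdkn2c and Cdkn1a, each with 2 starts, held 29 and 6, and 19 and 2. Cdkn1c was not among the entries.

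Most of the Cdkn2a gene lay inside 1 stretch of Polycomb states. State M covered 97.8% of the gene body (chr4:89274471-89294653), and the p16Ink4a start sat within a single M segment of 24000 bp. That segment was part of an unbroken run of 45200 bp (chr4:89249401-89294600), made of 7 segments with 26400 bp in M, 18400 bp in N, a Polycomb-repressed state, and 400 bp in L, the bivalent state with high H3K4me3. The p19Arf start lay just outside the run, in a B segment of 800 bp, and the Cdkn2b start in an A segment of 400 bp. The Cdkn2b body (chr4:89306299-89311039) was mixed, with the bivalent state K as its largest part at 29.5%. From 20 kb before to 20 kb after the 2 genes, states K to O, the bivalent and Polycomb-repressed states, took 64.2% of the bases, against 22.5% of the autosomes, and state M alone took 34.5% against 1.23%. Without the flanks the share was 78.0%, and with 50 kb on each side it was 51.9%.

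**Figure D1:**
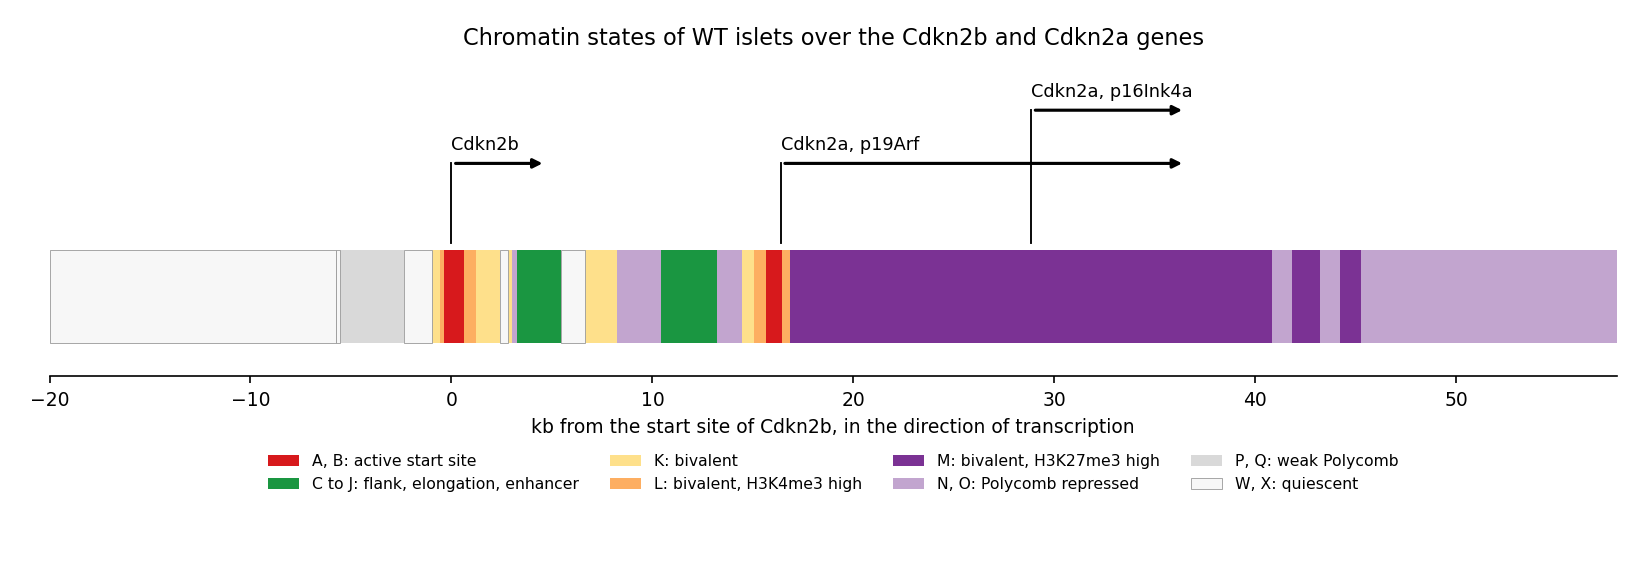
Chromatin state of WT islets along the Cdkn2b and Cdkn2a genes, with distance from the Cdkn2b start site in kb on the horizontal axis, state by colour and an arrow for each transcript. The Cdkn2b and p19Arf starts sit in short red active segments, and the p16Ink4a start sits inside the purple M segment of 24000 bp.

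The other 5 members differed in state. Cdkn1c (p57Kip2, chr7:143458339-143461050) had states closest to those of Cdkn2a, with its start in L and M as the largest state of its body at 51.6%. Cdkn1b (p27Kip1, chr6:134920401-134925513) started in A and had B as its largest body state. Cdkn2c (p18Ink4c, chr4:109660876-109667189) started in A, with K at 28.5% of the body. Cdkn2d (p19Ink4d, chr9:21288410-21291407) had its outermost start in L, but that transcript is outside the basic annotation and both basic transcripts started in B. Cdkn1a (p21Cip1, chr17:29090976-29100727) had its outermost start in X, a quiescent state, while 2 of its transcripts started in A further downstream at 29093769 and 29093781. A start site in K to O was thus found for 2 of 7 members at the outermost start, near the share of 36.1% over all 28877 genes with a start state. It was found for 3 of 7 if any annotated start counted, since Cdkn2a joined and none left. The share over all genes was not computed for that count.

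The libraries held 4645393 to 22925359 counted reads. The shallowest was WT replicate 2 at 25 weeks. Levels are CPM, the counts per 1000000 reads of TMM-scaled library size, and differences are log2 fold changes with their standard errors from edgeR's quasi-likelihood test, with p-values adjusted over all genes tested. Eed itself was lower in each KO library than in any WT library of its age. It was at 23.8, 33.1 and 31.2 CPM in 8-week WT, 17.2, 17.1 and 20.5 in HET and 14.9, 13.4 and 14.8 in KO libraries. At 25 weeks it was at 28.3, 22.0 and 19.3 CPM in WT, 16.3 and 16.9 in HET and 15.6 and 14.2 in KO libraries. The KO and WT groups did not overlap at either age. Over all genes 4.88% at 8 weeks and 15.9% at 25 weeks had a lower KO group without overlap. The log2 differences of Eed were -1.04 ± 0.22 (SE, edgeR adjusted p = 0.0881) and -0.69 ± 0.25 (adjusted p = 0.142), neither of which passed 0.05. Counts over the whole gene need not fall in step with the deleted part. The study reports efficient deletion from its own RNA and DNA measurements. It also reports that most insulin-positive cells of KO mice had lost H3K27me3 by 8 weeks. In whole islets fewer cells of a type and less RNA per cell cannot be told apart.

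Cdkn2a was the member that changed. In 8-week WT islets it was nearly silent, with 4, 4 and 8 reads in the 3 libraries, or 0.254, 0.233 and 0.424 CPM. The 8-week KO libraries held 241, 172 and 153 reads, or 11.4, 8.62 and 13.2 CPM. All 3 KO libraries stood far above all 3 WT libraries. The log2 fold change was 5.14 ± 0.41 (SE, 95% confidence interval 4.23 to 6.05), a 35.3-fold rise, with an edgeR adjusted p of 0.000646 and the third smallest p of 18685 genes. With the replicate number as a block the fold change was 4.83 and the adjusted p was 0.113, in a fit that called no gene at all at 8 weeks.

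At 25 weeks the difference was present again in other animals. The WT libraries held 3, 5 and 3 reads (0.654, 0.376 and 0.232 CPM), and the KO libraries held 255 and 633 reads (19.4 and 25.5 CPM). Cdkn2a rose by 5.81 ± 0.45 on the log2 scale (SE, interval 4.82 to 6.81), 56.1-fold, with an edgeR adjusted p of 0.00017, the seventh smallest p. Both differences rest on WT libraries of 8 reads or fewer, so the folds are uncertain in their denominator in a way that the KO levels are not.

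KO Cdkn2a was higher at 25 weeks than at 8 weeks in each library. The KO means were 11.1 ± 2.32 CPM (SD, n = 3) at 8 weeks and 22.5 ± 4.33 CPM (SD, n = 2) at 25 weeks, and 17.3% of all genes likewise showed a higher 25-week KO group without overlap. The log2 difference was 0.97 ± 0.36 (SE), with a p of 0.0214 before adjustment and an edgeR adjusted p of 0.257, so a further increase with age did not pass the test. Only 1.5% of the genes tested were called in that comparison. The WT means were 0.303 ± 0.105 CPM at 8 weeks and 0.421 ± 0.214 CPM at 25 weeks (SD, n = 3 each), from 16 and 11 reads in all, and a difference was not detectable at this depth (edgeR adjusted p = 0.887). The KO effect itself differed between the ages by 0.67 ± 0.60 on the log2 scale (interval -0.66 to 1.99, edgeR adjusted p = 0.903), where 0.198% of genes were called.

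HET islets were not called against WT islets. At 8 weeks they held 6, 5 and 7 reads of Cdkn2a (0.418, 0.222 and 0.482 CPM), inside or beside the WT range, with an edgeR adjusted p of 0.879. At 25 weeks they held 15 and 9 reads (0.817 and 0.525 CPM), and 1 of the 2 libraries lay above the highest WT library (adjusted p = 1). The order of group means was KO at 25 weeks, KO at 8 weeks, then HET at 25 weeks, WT at 25 weeks, HET at 8 weeks and WT at 8 weeks, and the last 4 overlapped each with its neighbour.

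**Figure D2:**
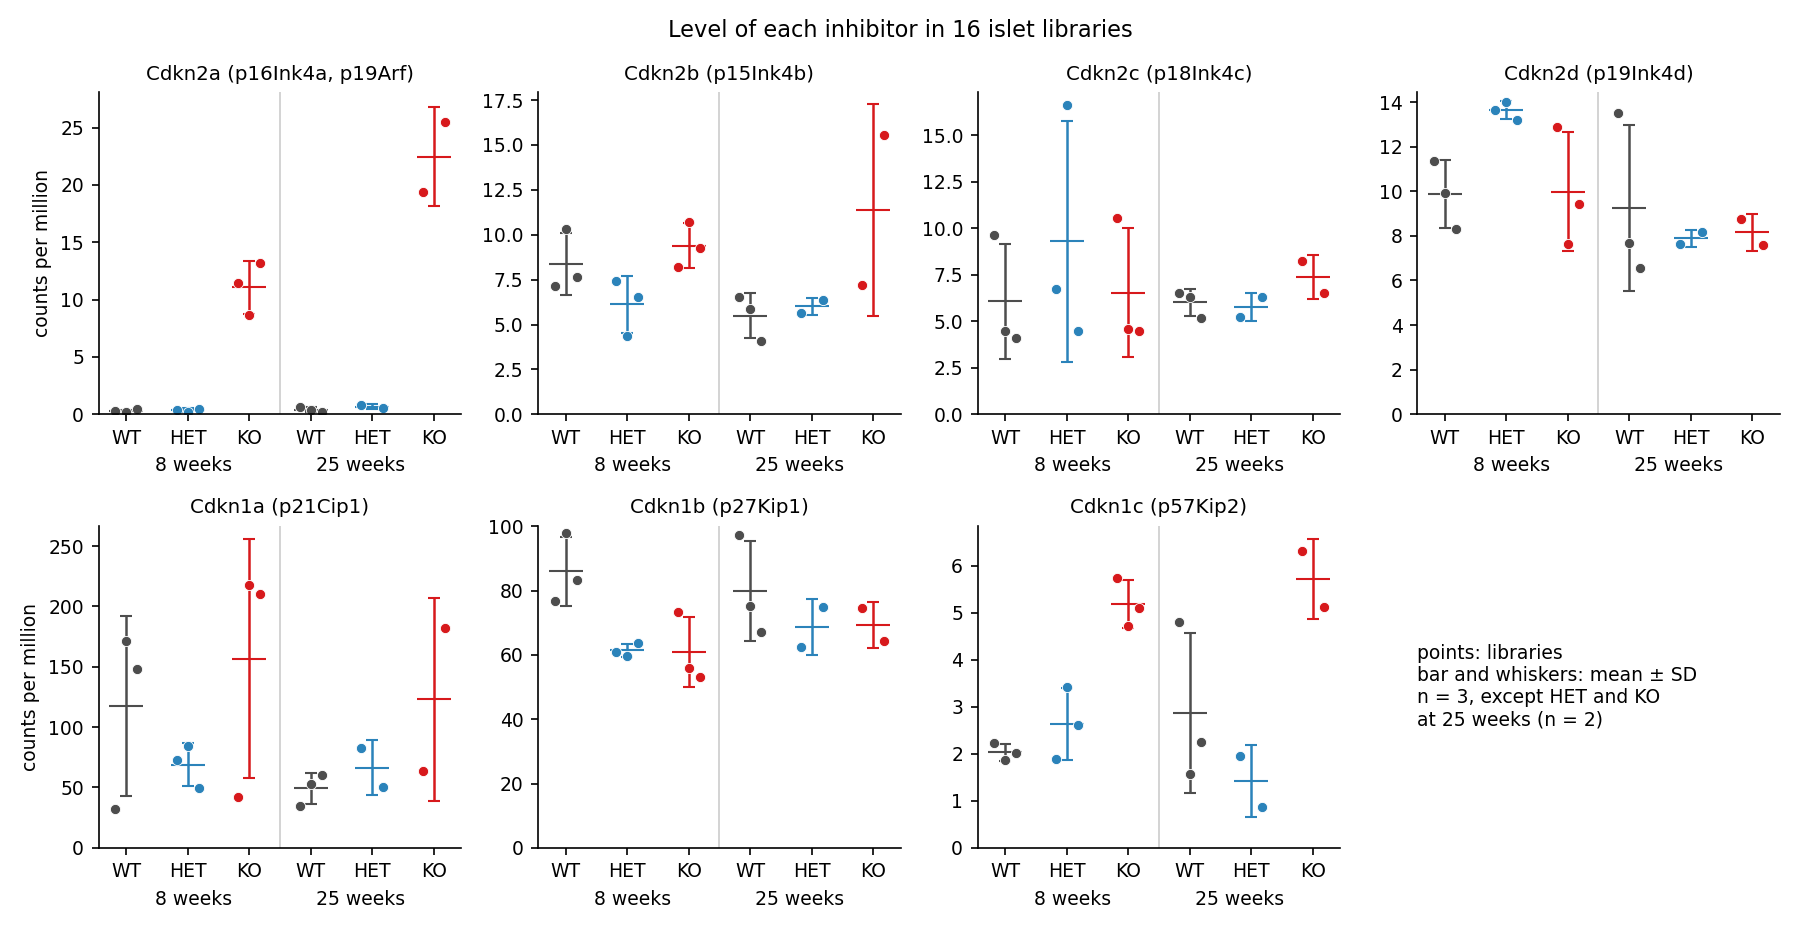
Level of each inhibitor (vertical axis, CPM, separate scale per gene) in each library, by genotype and age, with the mean and SD of each group. Cdkn2a lies at 0.222 to 0.817 CPM in the 11 WT and HET libraries and at 8.62 to 25.5 CPM in the 5 KO libraries, and the other 6 genes do not separate in that way.

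Of the 7 members, Cdkn2a was the only member called at 8 weeks and the only member called at 25 weeks, and all 7 had passed the filter on low counts. Over all 18685 genes 0.434% were called at 8 weeks and 6.6% at 25 weeks. Called higher were 0.428% at 8 weeks and 4.58% at 25 weeks. Of the genes starting in B, as Cdkn2a does at its outermost start, 0.0694% were called higher at 8 weeks and 2.43% at 25 weeks, and Cdkn2a was 1 of 2 such genes at 8 weeks. For state A, in which Cdkn2b starts, the shares were 0.0158% and 0.443%, for L, in which Cdkn1c starts, 1.89% and 14.2%, and for M, which holds the p16Ink4a start, 2.65% and 27.2%. Of the 463 genes with M as the largest body state, 4.97% were called higher at 8 weeks and 37.4% at 25 weeks. Cdkn2a combined an A or B start with an M body, and of the 16 tested genes with that pair of states 1 (6.25%), Cdkn2a itself, was called higher at 8 weeks and 3 (18.8%) at 25 weeks.

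**Figure D3:**
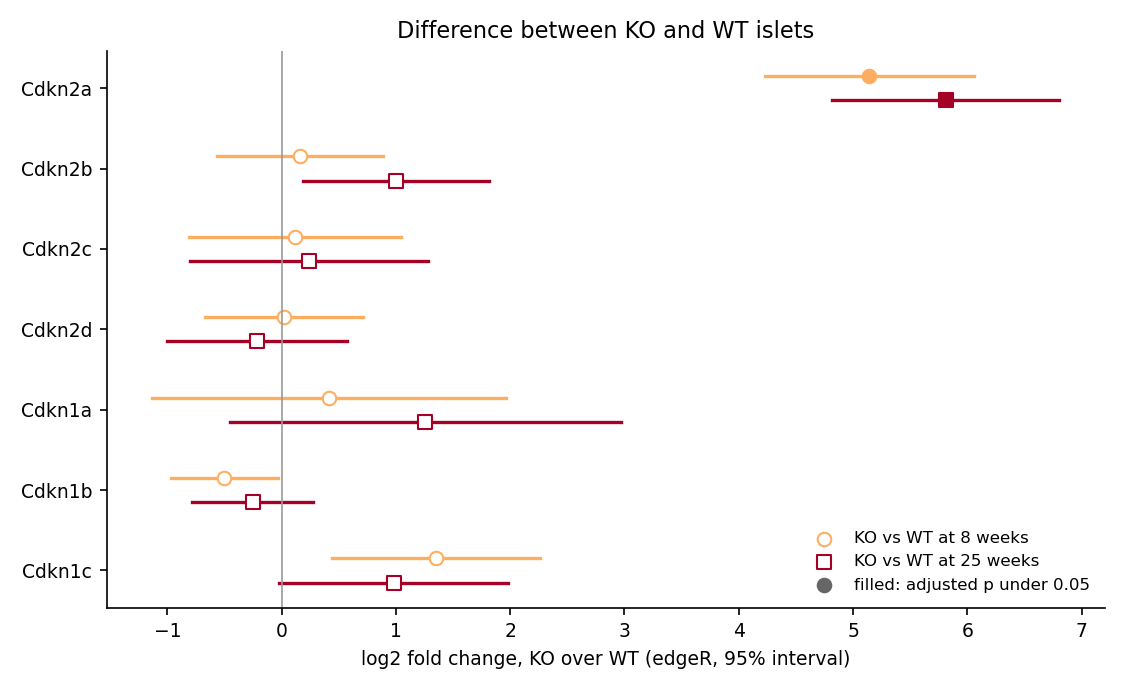
Log2 fold change of KO over WT (horizontal axis, with 95% interval) for each inhibitor at 8 weeks (circles) and 25 weeks (squares), filled where the adjusted p is under 0.05. Cdkn2a sits at 5.14 and 5.81, and the other 12 values lie between -0.50 and 1.35.

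Cdkn2b, the next gene to Cdkn2a, was not called with it at 8 weeks. Its levels were 7.16, 10.3 and 7.62 CPM in WT and 8.20, 10.7 and 9.25 CPM in KO libraries, which overlapped. The log2 difference was 0.16 ± 0.33 (interval -0.56 to 0.89, edgeR adjusted p = 0.964). At 25 weeks the WT libraries were at 6.54, 5.87 and 4.10 CPM and the KO libraries at 7.22 and 15.6 CPM. Both KO values were above the WT range, 1 of them only slightly, as both were for 24.7% of all genes. Scaled by library size alone, KO replicate 2 was at 5.49 CPM, below WT replicate 3 at 6.58 CPM. The difference of 1.00 ± 0.37 (interval 0.19 to 1.82) had a p of 0.0203 before adjustment and an edgeR adjusted p of 0.148. It was 0.35 (adjusted p = 0.769) without KO replicate 3 and 1.43 without KO replicate 2. With WT and HET libraries pooled as control it was 1.01 with an edgeR adjusted p of 0.042. That fit called 2649 genes of the whole table, against 1234 without pooling. HET libraries were at 7.45, 4.39 and 6.54 CPM at 8 weeks and at 5.66 and 6.36 CPM at 25 weeks. From 8 to 25 weeks the WT level went from 8.38 ± 1.72 to 5.50 ± 1.26 CPM (SD, n = 3 each, log2 difference -0.62, edgeR adjusted p = 0.526), without overlap, as did 8.95% of all genes. By library size alone these WT groups overlapped, with 5.99 CPM in 8-week replicate 1 and 6.58 CPM in 25-week replicate 3. The difference between the KO effects at the 2 ages was 0.84 ± 0.49 (edgeR adjusted p = 0.792).

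The annotated genes that start within 100 kb of Cdkn2a or Cdkn2b were close to or at 0. The lincRNA Gm12606, which starts 37.6 kb beyond the Cdkn2b start in state M, had 1 read in 1 of 16 libraries. The pseudogene Tgif2-ps1 had none in 16 libraries. Gm12609, on the other side in state X, had 0 to 7 reads in any library, with 7, 1 and 2 in 8-week KO and 2 and 1 in 25-week KO libraries. None of the 3 passed the filter on low counts, so none was tested.

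Cdkn1c, the CIP/KIP member named p57Kip2, which is imprinted and restrains the growth of β cells in development, was higher in KO islets at both ages without passing the test. At 8 weeks it was at 2.22, 1.86 and 2.01 CPM in WT, 1.88, 3.41 and 2.62 in HET and 5.73, 4.71 and 5.10 in KO libraries. The KO libraries lay close together and above all WT and HET libraries, and 6.53% of all genes had a KO group above WT without overlap. The difference from WT was 1.35 ± 0.41 (interval 0.44 to 2.26), with a p of 0.00771 before adjustment and an edgeR adjusted p of 0.319. DESeq2 gave 1.37 with an adjusted p of 0.0438, and called 378 genes of the whole table against 81 with edgeR. At 25 weeks the levels were 4.79, 1.58 and 2.24 CPM in WT, 1.96 and 0.875 in HET and 6.31 and 5.12 in KO libraries. The highest WT value came from the shallowest library, from 22 reads. The difference was 0.98 ± 0.45 (interval -0.02 to 1.98, edgeR adjusted p = 0.257), and without that library it was 1.52 with an adjusted p of 0.0455. HET against WT at 25 weeks was -0.97 ± 0.49 (edgeR adjusted p = 1). Gm44732 overlaps the gene on the other strand and had no read in any library.

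Cdkn1a, the inhibitor p21Cip1, which p53 activates, varied more between libraries of a group than between genotypes. At 8 weeks WT libraries were at 32.3, 171 and 148 CPM, HET libraries at 72.4, 84.7 and 49.8 CPM and KO libraries at 42.3, 218 and 210 CPM. Replicate 1 was far below the others in both WT and KO. The KO difference was 0.41 ± 0.70 (interval -1.13 to 1.96, edgeR adjusted p = 0.956) and went from -0.04 to 0.87 as single libraries were left out, the lowest without WT replicate 1. At 25 weeks WT libraries were at 34.6, 52.6 and 60.4 CPM, HET libraries at 82.8 and 50.3 CPM and KO libraries at 63.7 and 182 CPM. Both KO values lay above the WT range, 1 narrowly, as both did for 24.7% of all genes. Scaled by library size alone, KO replicate 2 was at 48.4 CPM, below WT replicate 3 at 59.0 CPM. The difference was 1.26 ± 0.77 (interval -0.45 to 2.97, edgeR adjusted p = 0.409), and 1.30 with the replicate block, where the adjusted p was 0.0459. It was 0.32 (adjusted p = 0.924) without KO replicate 3 and 1.81 without KO replicate 2. From 8 to 25 weeks the WT level differed by -1.26 ± 0.71 (edgeR adjusted p = 0.529). The 8-week libraries numbered 1 stood apart in earlier results of these data. Without them that difference was -1.67 with an edgeR adjusted p of 0.035. That fit called 1866 genes over age in WT, where 0 were called with these libraries kept. WT replicate 1, at 32.3 CPM, was the lowest 8-week WT library. Leaving it out therefore raised the 8-week WT level by choice of library, and this fit is no separate evidence of a fall with age. AC167363.2 overlaps 273 bp of the Cdkn1a exons on the other strand and was not analysed here.

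Cdkn1b, the inhibitor p27Kip1, which holds many differentiated cells out of the cycle, had among the highest levels of the family. At 8 weeks it was at 76.8, 97.9 and 83.2 CPM in WT, 60.9, 59.8 and 63.7 in HET and 73.5, 56.0 and 53.3 in KO libraries. All HET and KO libraries lay below all WT libraries, as 9.09% and 4.88% of all genes did in those comparisons. With library size alone KO and WT overlapped, with 81.3 CPM in KO replicate 1 and 64.2 CPM in WT replicate 1. The KO difference was -0.50 ± 0.21 (interval -0.97 to -0.03, edgeR adjusted p = 0.596), and -0.73 to -0.06 under the alternatives. The HET difference was -0.48 ± 0.18 (edgeR adjusted p = 0.277). Both comparisons use the same 3 WT libraries. At 25 weeks the levels overlapped, with 97.2, 75.2 and 67.3 CPM in WT, 62.5 and 74.9 in HET and 74.5 and 64.3 in KO libraries, and the KO difference was -0.25 ± 0.24 (interval -0.78 to 0.27, edgeR adjusted p = 0.623).

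Cdkn2c and Cdkn2d, the INK4 members p18Ink4c and p19Ink4d, showed no difference beyond their spread. Cdkn2c was at 9.64, 4.48 and 4.08 CPM in 8-week WT, 6.75, 16.6 and 4.47 in HET and 10.6, 4.56 and 4.50 in KO libraries. In each genotype 1 library stood above the rest, numbered 1 in WT and KO and 2 in HET. At 25 weeks it was at 6.54, 6.32 and 5.18 CPM in WT, 5.23 and 6.30 in HET and 8.21 and 6.53 in KO libraries. The KO differences were 0.12 ± 0.42 at 8 weeks (interval -0.81 to 1.05, edgeR adjusted p = 0.982) and 0.24 ± 0.47 at 25 weeks (interval -0.80 to 1.29, adjusted p = 0.834). Cdkn2d was at 11.4, 9.94 and 8.31 CPM in 8-week WT, 13.6, 14.0 and 13.2 in HET and 12.9, 7.62 and 9.43 in KO libraries, and at 13.5, 7.67 and 6.57 CPM in 25-week WT, 7.62 and 8.16 in HET and 8.74 and 7.58 in KO libraries. Its 8-week HET libraries lay above all WT libraries by 0.47 ± 0.27 on the log2 scale (edgeR adjusted p = 0.427), as 10.2% of all genes did. The KO differences of Cdkn2d were 0.02 ± 0.31 (interval -0.67 to 0.71, edgeR adjusted p = 0.999) and -0.22 ± 0.36 (interval -1.0 to 0.57, adjusted p = 0.799).

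Across the family, the KO and WT groups did not overlap in the direction of a higher KO level for 2 of 7 members at 8 weeks and for 4 of 7 at 25 weeks, where 6.53% and 24.7% of all genes showed this. No member was called between HET and WT at either age, between 8 and 25 weeks in WT or in KO islets, or in the difference of the KO effects. In the HET comparisons and in WT over age, edgeR called no gene of the whole table, while 2743 genes at 8 weeks, 210 at 25 weeks and 1898 over age had a p under 0.05 before adjustment. DESeq2 called 400, 2 and 143 genes in these 3 comparisons and no member. Expressed per kb of exon, the 8-week WT level was 33.0 CPM per kb for Cdkn1a, 18.9 for Cdkn1b, 6.27 for Cdkn2d, 6.03 for Cdkn2b, 2.26 for Cdkn2c, 0.996 for Cdkn1c and 0.259 for Cdkn2a. Cdkn2d and Cdkn2b in that order differed by less than their SDs of 0.966 and 1.24. In 25-week KO islets Cdkn2a was at 19.2 ± 3.70 CPM per kb (SD, n = 2), between Cdkn1a at 34.6 ± 23.6 and Cdkn1b at 15.3 ± 1.58.

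Over the 16 libraries, among the genes most like Cdkn2a on log2 CPM were Tceal6 (Pearson r = 0.989) and B4galnt4 (0.970), of 18827 genes compared. The 16 points of Cdkn2a form 2 sets, 5 KO libraries and 11 others, so that any gene that separates them follows it. For Cdkn1a they were Rnd3, Crem and Got1, each at 0.950 to 0.951, and for Cdkn1c Ifitm2 at 0.939, Ngfr at 0.920 and Prrg3 at 0.919. Cdkn2b was followed by Ccdc112 at 0.893, Il1rap and Lpar2, Cdkn2c by Hdhd2 at 0.923, Abhd4 and Thra, Cdkn2d by Timmdc1 at 0.932, H2afv and Mrpl36, and Cdkn1b by the zinc finger genes Zfp763 at 0.916, Zfp729b and Zfp260. These values share libraries and their depth.

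The kinases and cyclins that the inhibitors act on were not called. Of 12 G1 cyclins, kinases and their activators, 0 passed the test at either age, with median log2 fold changes of -0.003 at 8 weeks and -0.17 at 25 weeks, beside 0.004 and 0.03 over all genes. Cdk6, the partner of cyclin D, was at 1.35 ± 0.52 at 8 weeks (edgeR adjusted p = 0.524), and Ccnd2, the main D-type cyclin of adult mouse β cells, was at -0.96 ± 0.33 at 25 weeks (adjusted p = 0.129). Of 13 pocket protein and E2F genes, 0 passed at either age, with medians of -0.27 and -0.10. E2f1 was at -0.77 ± 0.35 at 8 weeks (edgeR adjusted p = 0.642) and at -1.41 ± 0.41 at 25 weeks (adjusted p = 0.074). DESeq2 called both Ccnd2 (adjusted p = 0.0273) and E2f1 (0.0255) lower at 25 weeks.

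Genes of S phase and mitosis went from a median of -0.38 at 8 weeks, with 0 of 23 called, to 0.61 at 25 weeks, with 1 called higher, a share near the 4.58% of all genes. The gene called was Mcm3, a subunit of the replicative helicase, at 5.52 ± 0.28 CPM in KO (SD, n = 2) against 1.98 ± 0.18 CPM in WT islets (n = 3), a log2 difference of 1.43 ± 0.37 (edgeR adjusted p = 0.0457). It was not called with the replicate block (adjusted p = 0.13). Top2a at -0.74 ± 0.44 and Mki67 at -0.64 ± 0.40 had the smallest p of the list at 8 weeks (edgeR adjusted p = 0.768 and 0.797).

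The p53 branch, to which p19Arf signals, had 0 of 17 genes called at 8 weeks and 3 called higher at 25 weeks. Over all genes 4.58% were called higher at that age. Phlda3, a p53 target that represses Akt, rose by 2.35 ± 0.30 on the log2 scale at 25 weeks (edgeR adjusted p = 0.00187), from 3.71 ± 0.85 CPM in WT to 19.8 ± 2.76 CPM in KO islets. Eda2r, a death receptor of the TNF receptor family, rose by 4.45 ± 0.79 (edgeR adjusted p = 0.00827), and was listed at 0 in 1 WT library. Pmaip1, which encodes the BH3-only protein Noxa, rose by 3.93 ± 0.70 (edgeR adjusted p = 0.00839) and was at 18.3 and 64.6 CPM in the KO libraries. With the replicate block Pmaip1 was at an adjusted p of 0.0548 and Aen was called instead (0.029), and Phlda3 at 0.0917 in a fit that included the HET libraries, 1 of which was at 45.9 CPM at 8 weeks. Eda2r was not called without KO replicate 3 at 25 weeks, and Pmaip1 neither without that library nor without WT replicate 3. At 8 weeks Phlda3 was at 0.99 ± 0.27 (edgeR adjusted p = 0.238) and Pmaip1 at 1.76 ± 0.61 (adjusted p = 0.437). The median of the list was -0.05 at 8 weeks and 0.58 at 25 weeks.

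Regulators of the inhibitor genes and proteins, a list of Polycomb and Trithorax subunits, Foxo factors and the p27Kip1 ubiquitin ligase, had 0 of 18 genes called at either age, with medians of -0.19 and -0.09. At 8 weeks DESeq2 called Eed (adjusted p = 0.00284), as did the fit of all 16 libraries (0.0223). Bmi1, a PRC1 subunit whose loss is known to release Cdkn2a, was at 0.49 ± 0.20 at 8 weeks (edgeR adjusted p = 0.591, and 0.039 with WT and HET pooled), and Cbx8, another PRC1 subunit, at 0.99 ± 0.42 (adjusted p = 0.591). At 25 weeks Foxo1 was at -0.83 ± 0.26 (edgeR adjusted p = 0.0908, and 0.0347 with DESeq2) and Hmga2, which represses Cdkn2a in stem cells, at 2.76 ± 0.96 (adjusted p = 0.129).

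TGFβ signalling, which induces Cdkn2b and Cdkn1a in many cells, had 0 of 10 genes called at 8 weeks and 2 called higher at 25 weeks, with medians of -0.004 and 1.19. Over all genes 4.58% were called higher at 25 weeks. The receptor Tgfbr2 rose by 1.32 ± 0.29 on the log2 scale (edgeR adjusted p = 0.0235) and the ligand Tgfb2 by 1.66 ± 0.40 (adjusted p = 0.0346). With the replicate block the adjusted p was 0.102 for Tgfbr2 and 0.1 for Tgfb2. Tgfbr2 was also not called in the fit of all 16 libraries (edgeR adjusted p = 0.173) or with WT and HET pooled (0.0716). Tgfb2 was called in both. At 8 weeks Tgfbr2 was at 0.67 ± 0.26 (edgeR adjusted p = 0.536) and Tgfb1 at 1.18 ± 0.47 (adjusted p = 0.555). Of 12 secreted genes of the senescence program 11 were tested and 0 called at either age, with medians of 0.97 at 8 weeks and 1.52 at 25 weeks. That count at 25 weeks depended on the fit. It was 3 with DESeq2 and in the fit of all 16 libraries (Igfbp3, Igfbp5 and Igfbp7), 3 with the replicate block (Il6, Cxcl1 and Igfbp5) and 5 with the block and library size alone, all of them higher. Over the whole table DESeq2 called 2049 genes and the fit of all 16 libraries 1692. The block called 1027, and the block with library size alone 1988, against 1234 in the values reported. Il6 was at 0.152 and 40.7 CPM and Cxcl1 at 0.608 and 32.4 CPM in the 2 KO libraries, so 1 library carried both. Il6, Cxcl1, Igfbp5 and Aen were named after their values were seen. Those with the smallest p at 25 weeks were Igfbp7 at 0.89 ± 0.24 (edgeR adjusted p = 0.0536) and Igfbp3 at 0.83 ± 0.23 (adjusted p = 0.0601), and at 8 weeks Igfbp7 at 0.42 ± 0.22 (adjusted p = 0.71) and Il1b at 2.10 ± 1.18 (adjusted p = 0.755).

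**Figure D4:**
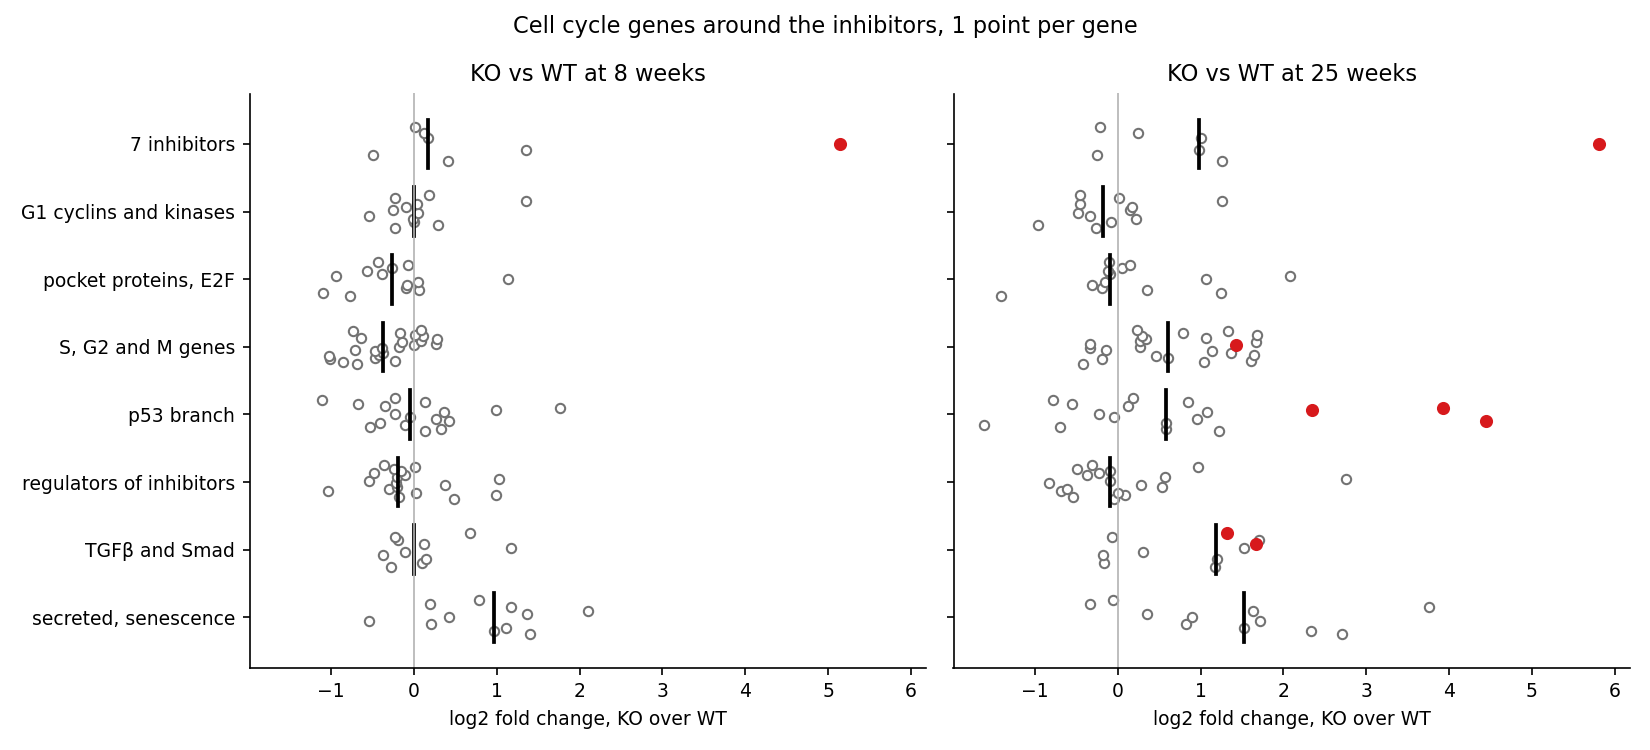
Log2 fold change of KO over WT (horizontal axis) for every tested gene of 8 lists, 1 point per gene, at 8 weeks (left) and 25 weeks (right), with the list median as a black bar and genes with an adjusted p under 0.05 in red. Cdkn2a is the only red point at 8 weeks, and at 25 weeks it is joined by 3 genes of the p53 branch, 2 of TGFβ signalling and 1 of S phase.

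Markers of several cell types moved with genotype at 25 weeks. The summed level of 10 β cell markers, Ins1 and Ins2 among them, was 124200 to 221300 CPM in WT and 14030 to 17430 CPM in KO islets, and 9 of the 10 were called lower, where 2.02% of all genes were. Summed over their lists, 9 mesenchymal markers were at 171.7 to 258 CPM in WT and 418.4 to 545.8 CPM in KO islets with 4 called higher, 9 macrophage and leukocyte markers at 222.4 to 347.3 and 477.1 to 739.4 CPM with 2 called, and 8 duct markers at 365.5 to 456.9 and 855 to 885.9 CPM with 3 called. Acinar markers, 10 in number, ran from 12380 to 394200 CPM between the 2 KO libraries and were not called. Of 5 α cell markers 1 was called higher, and of 9 endothelial and 4 δ and PP cell markers 0 were called. Over all genes 4.58% were called higher at 25 weeks. No marker list was at 0 in any group. At 8 weeks none of these lists had a gene called, β cell markers summed to 138300 to 207900 CPM in WT and 131300 to 214900 CPM in KO islets, and mesenchymal markers to 159 to 213.2 and 199.6 to 340.1 CPM, each with overlap. Macrophage and leukocyte markers summed to 141 to 180.4 CPM in WT and 184.9 to 464.3 CPM in KO islets at that age, without overlap. The part of these shifts in the values of Cdkn2a, Cdkn2b, Cdkn1a, Cdkn1c and the lists was not tested.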

How the data were processed

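Bulk RNA-seq counts of 16 whole-islet libraries and 1 chromatin-state list were used. Per the labels and the study's methods, the authors prepared libraries with an Illumina TruSeq v2 kit, mapped reads with TopHat2 2.0.13 to GRCm38 and counted them per gene of Gencode M9 with featureCounts (Subread 1.5.0-p1). The deposited values are raw counts of reads per gene, not normalized, and the strand setting of the counting is not given in the sources used here. The authors called the states with EpicSeg on averaged replicates. These letters carry no number and were used as other labels.

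Genes were kept by edgeR's filterByExpr, scaled by TMM and tested with edgeR 4.0.16 (glmQLFit, glmQLFTest, Benjamini-Hochberg adjustment, calls at an adjusted p under 0.05). The 11 WT and KO libraries were fitted together in 4 groups for KO against WT, for age and for their difference (18685 genes), and all 16 libraries in 6 groups for HET against WT (18828 genes). Standard errors were the log2 fold change over the root of F. The p-values measure the spread between these libraries, which may be technical. Gene positions and states at start sites used Gencode M21 (GRCm38), with 713 counted genes unmatched, and each segment was a multiple of 200 bp. The 16 count columns all belong to these samples. Between replicates of a group the chi-square of counts over genes was at least 34.2 per degree of freedom, far above sampling noise, so none were counted as 1 sample.

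Labels give genotypes the same replicate numbers. The deviations of same-numbered WT and KO libraries from their group means correlated at 0.457 and 0.163 at 8 weeks and at 0.176 and 0.255 at 25 weeks. Each was over 0.1, the limit set for pairs, so these numbers were taken as pairs, although no label says what they mark and 2 differently numbered pairs at 8 weeks reached 0.45 and 0.329. The fit with that block was an alternative only, and is given where it changed the call of a member or a list gene. Its difference between KO and WT rests on 2 pairs at each age. WT replicate 3 and KO replicate 5 at 8 weeks and WT replicate 4 at 25 weeks had no partner and did not inform it. Its p-values therefore come from fewer libraries than those of the fit without the block, which ignores the pairs. WT and HET pairs were at 0.161, 0.080 and 0.0923 and were not taken as pairs.

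Alternatives were other scaling (library size, RLE), no filter, DESeq2 1.42.0, the replicate block, 1 library left out at a time, the 8-week libraries numbered 1 left out, 1 fit of all libraries, WT and HET pooled, and other windows for the states. The members, the lists and the tests were chosen with earlier results of these data known. Named genes are the 7 members, Eed, genes starting within 100 kb of Cdkn2a or Cdkn2b, the 3 genes closest to each member by Pearson r (1 of those for Cdkn2a is not reported here), and of each list at most 4 genes called (or at most 2 by smallest p where none was). Promoter sequences came from RefSeq, and 9 of 9 windows matched the genome. The test script was checked on simulated counts.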

Additional observations from a re-analysis of the deposited data

How the results depend on the processing

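Cdkn2a was called higher in KO islets at 25 weeks under all 20 alternatives, with log2 fold changes of 5.42 to 6.11 and adjusted p-values of up to 0.0153. At 8 weeks it was called under 19 of 20, and not with the replicate block (4.83, adjusted p = 0.113). The number of members called at 8 weeks, 1 in the values reported, was 2 with DESeq2 (Cdkn1c joined at 1.37) and 0 with the replicate block. At 25 weeks, where it was also 1, it was 2 with the replicate block (Cdkn1a joined), 2 with the block and library size alone (Cdkn1a at 1.37, adjusted p = 0.0357), 2 with WT and HET pooled as control (Cdkn2b joined at 1.01) and 1 to 2 as single libraries were left out (Cdkn1c joined without WT replicate 2). Over age in WT it went from 0 to 1 without the 8-week libraries numbered 1 (Cdkn1a). At 8 weeks, 81 genes of the whole table were called in the values reported and 378 with DESeq2. At 25 weeks 1234 were called in the values reported, 1027 with the block and 1988 with the block and library size alone. Pooling WT and HET called 2649 genes, and leaving out WT replicate 2 called 1127. Without the 8-week libraries numbered 1, 1866 genes were called over age in WT. The blocked fit changed no other call of a member, and age within a genotype could not be fitted with it because a block holds libraries of 1 age only. The share of the locus in states K to O moved to 51.9% with 50 kb and to 78.0% with no flank.

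Near-zero differences changed sign. Cdkn2d at 8 weeks was at -0.0079 with no filter, at -0.10 without the libraries numbered 1, at -0.23 with WT and HET pooled and at -0.20 to 0.18 as single libraries were left out, and at 25 weeks it was at -0.42 to 0.14. Cdkn2c at 8 weeks was at -0.23 with WT and HET pooled and at -0.40 to 0.59 as single libraries were left out. Leaving out single libraries, Cdkn1a at 8 weeks was at -0.039 to 0.87, Cdkn2a in WT over age at -0.0034 to 0.65, and Cdkn2a in HET against WT at 8 weeks at -0.028 to 0.57. Mki67 at 8 weeks was at 0.093 with the block and library size alone, and Phlda3 at 8 weeks at -0.59 with WT and HET pooled, where 1 HET library was at 45.9 CPM. The cause was not tested for these changes.

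Of the genes named from the lists, Mcm3 was not called in 8 of the fits without 1 library, nor Tgfb2 in 7 or Tgfbr2 in 4. Foxo1 at 25 weeks was called under 5 alternatives, Igfbp7 under 5 and Igfbp3 under 4. The number of genes called over the whole table was 81 at 8 weeks and 0 to 503 under the alternatives, and 1234 and 392 to 2649 at 25 weeks. For the difference between ages it was 37 and 2 to 333. Over age it was 0 and 0 to 1866 in WT, and 281 and 36 to 2724 in KO islets. For HET against WT it was 0 and 0 to 2136 at 8 weeks, and 0 and 0 to 32 at 25 weeks. WT libraries with 3 to 8 reads of Cdkn2a limit the precision of its folds.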
